A study of Mus musculus with 61 samples.

Results

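The nuclear genes for subunits of respiratory complexes I, III, IV and V were followed through mouse preimplantation development and in embryos with Klf17 genotype labels. Members were taken by symbol, as genes whose names begin with Ndufa, Ndufb, Ndufc, Ndufs, Ndufv, Uqcr, Cox4, Cox5, Cox6, Cox7, Cox8 or Atp5, without the Ndufaf assembly factors and without pseudogene symbols. The rule gave 80 of the 24551 genes in the window table, and the same 80 were present among the 22911 genes of the genotype table. By symbol, 38 belonged to complex I, 8 to complex III, 17 to complex IV and 17 to complex V. The filter on low counts passed 79 members in either experiment and removed Ndufa4l2. Some names of the set do not denote a subunit of the complex they are counted with. Atp5s and Atp5sl, which RefSeq lists as Dmac2l and Dmac2, are not ATP synthase subunits, Cox7a2l is best known as an assembly factor of respiratory supercomplexes, and the Ndufa4 protein is now assigned to complex IV.

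The study used SLAM-seq. Cells take up 4-thiouridine (4SU) and build it into RNA as it is transcribed, and after alkylation with iodoacetamide the labelled bases appear as T-to-C changes in the sequence. Embryos came from in vitro fertilisation of eggs of superovulated females and were labelled with 2 mM 4SU for 6 h. The wild-type windows, in hours post insemination (hpi), were 0-6hpi, 6-12hpi, 12-18hpi, 18-24hpi, 24-30hpi, 30-36hpi, 48-54hpi, 70-76hpi and 90-96hpi, with unfertilised MII oocytes as the start, 10 embryos per window sample and 3 libraries per group. The second experiment, at the stage the labels call M2C, held 3 libraries of Klf17 KO, 3 of Klf17 maternal KO (mKO), 2 of Klf17 paternal KO (pKO) and 3 of wild-type controls (ctrl). All groups had the 4SU label in common. For 0-6hpi the sperm and the cumulus-oocyte complexes were both exposed to 4SU during insemination. The labels used here state neither strain and age of the mice nor which part of Klf17 was deleted. The sources used here do not say if the counts were limited to converted reads, and a level may therefore include older RNA, such as that stored in the oocyte.

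The mitochondrial respiratory chain passes electrons from NADH through complex I, ubiquinone, complex III and cytochrome c to oxygen at complex IV, and the resulting proton gradient drives ATP synthesis by complex V. All of these complexes are mosaics of subunits encoded in the nucleus and subunits encoded in mitochondrial DNA, and the nuclear ones are made in the cytosol and imported. Oocytes carry a large store of mitochondria, and in the mouse embryo these are divided among the cells with little new mitochondrial DNA made until late in preimplantation development. Early cleavage embryos rely mainly on pyruvate, and respiration and glucose use increase towards the blastocyst.

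Promoter sequences were available from RefSeq (mouse build GRCm38.p6) for 66 of the 80 members, as 72 windows of 300 bases that reach from 250 bases before to 50 bases after the annotated start. The windows below belong to members on which the results turn: Uqcrc1, Ndufs7 and Ndufs8, which changed with both developmental window and genotype label, and the isoform pair Cox6b1 and Cox6b2. Capitals mark matches, on either strand, to GCATGCGC (the NRF1 motif), AAGATGGC (YY1) or CCGGAAG (ETS family).
Uqcrc1, chr9:108936398-108936697, plus strand: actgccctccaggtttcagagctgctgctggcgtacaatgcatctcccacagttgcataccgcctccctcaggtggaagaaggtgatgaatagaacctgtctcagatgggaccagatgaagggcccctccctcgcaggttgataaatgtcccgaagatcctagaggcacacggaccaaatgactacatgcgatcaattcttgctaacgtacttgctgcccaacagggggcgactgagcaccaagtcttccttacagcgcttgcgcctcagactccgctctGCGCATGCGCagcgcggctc
Ndufs7, chr10:80249199-80249498, plus strand: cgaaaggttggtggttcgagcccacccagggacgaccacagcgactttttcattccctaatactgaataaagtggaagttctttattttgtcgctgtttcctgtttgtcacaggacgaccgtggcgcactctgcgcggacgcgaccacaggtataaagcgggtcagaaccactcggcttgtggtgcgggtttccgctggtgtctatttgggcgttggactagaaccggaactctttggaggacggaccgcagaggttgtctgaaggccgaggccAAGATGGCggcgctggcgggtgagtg
Ndufs8, chr19:3912725-3913024, minus strand: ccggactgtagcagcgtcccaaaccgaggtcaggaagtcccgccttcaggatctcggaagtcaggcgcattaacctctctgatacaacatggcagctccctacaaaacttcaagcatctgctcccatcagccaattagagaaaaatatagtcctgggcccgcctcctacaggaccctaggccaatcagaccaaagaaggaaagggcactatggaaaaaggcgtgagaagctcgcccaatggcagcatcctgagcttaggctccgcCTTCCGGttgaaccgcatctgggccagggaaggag
Cox6b1, chr7:30626065-30626364, minus strand: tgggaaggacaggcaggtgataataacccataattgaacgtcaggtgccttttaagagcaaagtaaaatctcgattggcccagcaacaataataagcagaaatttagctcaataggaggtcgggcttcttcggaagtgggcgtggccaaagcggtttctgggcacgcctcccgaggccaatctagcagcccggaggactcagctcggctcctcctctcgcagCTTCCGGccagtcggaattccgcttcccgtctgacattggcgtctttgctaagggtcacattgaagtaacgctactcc
Cox6b2, chr7:4753045-4753344, minus strand: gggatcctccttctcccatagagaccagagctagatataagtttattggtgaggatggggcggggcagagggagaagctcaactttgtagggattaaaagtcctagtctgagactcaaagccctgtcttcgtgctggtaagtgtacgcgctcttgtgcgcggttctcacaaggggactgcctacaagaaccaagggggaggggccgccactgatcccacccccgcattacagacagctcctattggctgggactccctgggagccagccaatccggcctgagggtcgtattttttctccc
The capitals in Uqcrc1 cover 2 overlapping matches to the NRF1 letters, which begin 31 and 33 bases after the start. The YY1 letters in Ndufs7 begin 25 bases and the ETS letters in Ndufs8 16 bases after the start, and those in Cox6b1 28 bases before it. None of these letters is in the Cox6b2 window. The windows shown are a part of the members that changed with both developmental window and genotype label. Ndufb10, Cox7a2l and Ndufa1 also changed with both, and none of their promoters held the NRF1, YY1 or ETS letters. For Cox4i1, another such member, no promoter was available.

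Over the set, NRF1 letters were found in 9 of 72 member promoters (12.5%), against 2.71% of all 32851 promoters of the same length. YY1 letters were in 12 (16.7%), against 2.75% of all, and ETS letters in 14 (19.4%), against 8.86% of all. A CCAAT box (CCAAT, the NF-Y motif) was in 30 (41.7%), against 37.4% of all, and a KLF-type GC box (CCNCNCCC) in 44 (61.1%), against 49.5% of all. Among the 43 promoters of members that were higher at 24-30hpi than at 18-24hpi or at 30-36hpi than at 24-30hpi, the shares were 6.98% for NRF1, 14% for YY1 and 11.6% for ETS letters. A match is a string of letters and not a measured binding site.

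Libraries held 7395193 to 13301570 counted reads in the windows and 14080264 to 23018252 in the genotype experiment. Replicates correlated across genes at r = 0.976 to 0.993 and 0.913 to 0.980, and no pair of libraries agreed within sampling noise. Oocyte markers summed to 161 CPM at 90-96hpi, against 10963 CPM in MII oocytes, and morula and blastocyst markers to 9105 CPM, against 406 CPM. Cumulus cell markers summed to 6.05 CPM at 90-96hpi and 144 CPM in MII oocytes, where Cyp19a1 alone made up nearly all of the sum and the other cumulus markers were near 0, and sperm markers summed to at most 6.86 CPM in any group. Levels are in CPM, the count of a gene scaled to a common library total, and in these bulk samples fewer cells of a type and less RNA per cell cannot be told apart.

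Over development the set as a whole moved from a few abundant messages in the oocyte to a broad, high level at 90-96hpi. All members together summed to 27833 ± 832 CPM at 90-96hpi, against 4464 ± 174 CPM in MII oocytes (SD, n = 3 each). Group means lay between 4464 and 5854 CPM up to 30-36hpi (5848 ± 222 CPM). The sum was 13687 ± 636 CPM at 48-54hpi and 19102 ± 1728 CPM at 70-76hpi. These sums use library totals scaled by TMM, and the size of the steps depended on the scaling. For 30-36hpi against 12-18hpi the members' median log2 fold change was 0.36 with TMM and 0.92 with total count scaling. For 48-54hpi against 30-36hpi it was 1.27 with TMM and 0.79 with total count scaling. Complex I summed to 9644 ± 316 CPM at 90-96hpi, against 1369 ± 51.9 CPM in MII oocytes. Complex III, whose sum was lowest at 18-24hpi (230.5 ± 13.0 CPM), reached 3054 ± 118 CPM at 90-96hpi. For complex IV the sums were 7096 ± 364 CPM at 90-96hpi and 1466 ± 81.1 CPM in MII oocytes, and for complex V 8040.4 ± 566 and 1094 ± 66.3 CPM.

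**Figure D1:**
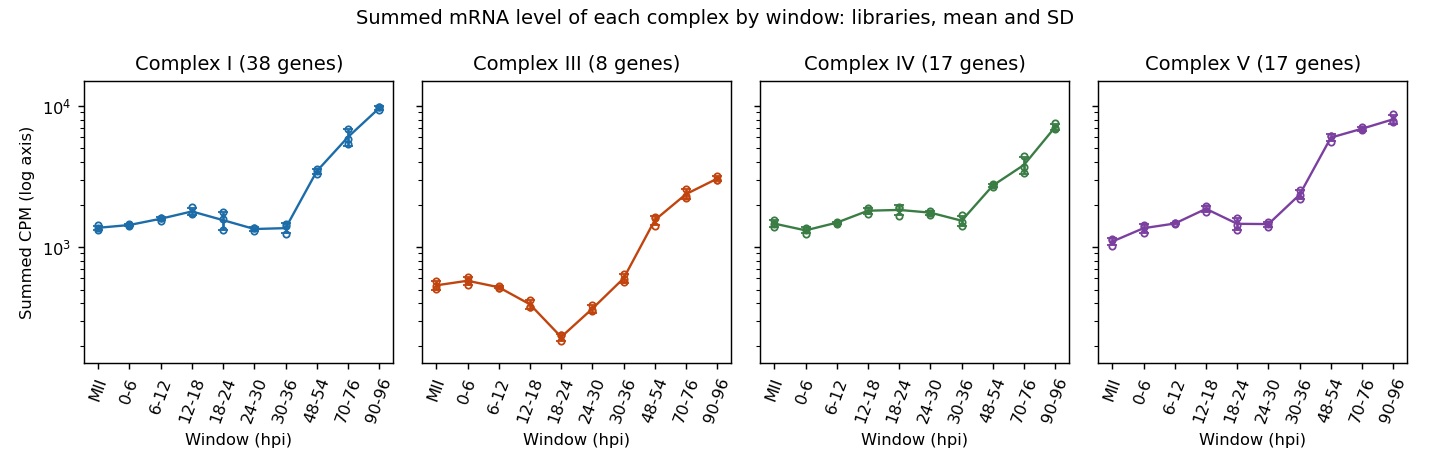
Summed level of the members of complexes I, III, IV and V (CPM, log axis) in the MII oocyte and the 9 labelling windows, with libraries as open points and the mean with SD as a line (n = 3). All 4 sums are highest at 90-96hpi, and only complex III has its lowest mean at 18-24hpi.

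Per kilobase of the deposited gene length the median member stood at 10.2 CPM per kb in MII oocytes, 22.4 at 12-18hpi, 32.9 at 30-36hpi, 83.5 at 48-54hpi, 157 at 70-76hpi and 266 at 90-96hpi. In MII oocytes the 5 highest members on this scale, Cox8a, Cox6b2, Atp5b, Cox7a2 and Uqcrc2, took 54.1% of the set's summed CPM per kb. At 90-96hpi the 5 highest were Cox4i1, Cox8a, Cox6b1, Cox6a1 and Uqcr10, and their share was 21%. The window of the highest mean was 90-96hpi for 56 of the 79 tested members, 70-76hpi for 10 and 48-54hpi for 5. Only 3 members, Uqcrc2, Ndufa10 and Cox6b2, had their highest mean in MII oocytes, and 44 had their lowest mean there.

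**Figure D2:**
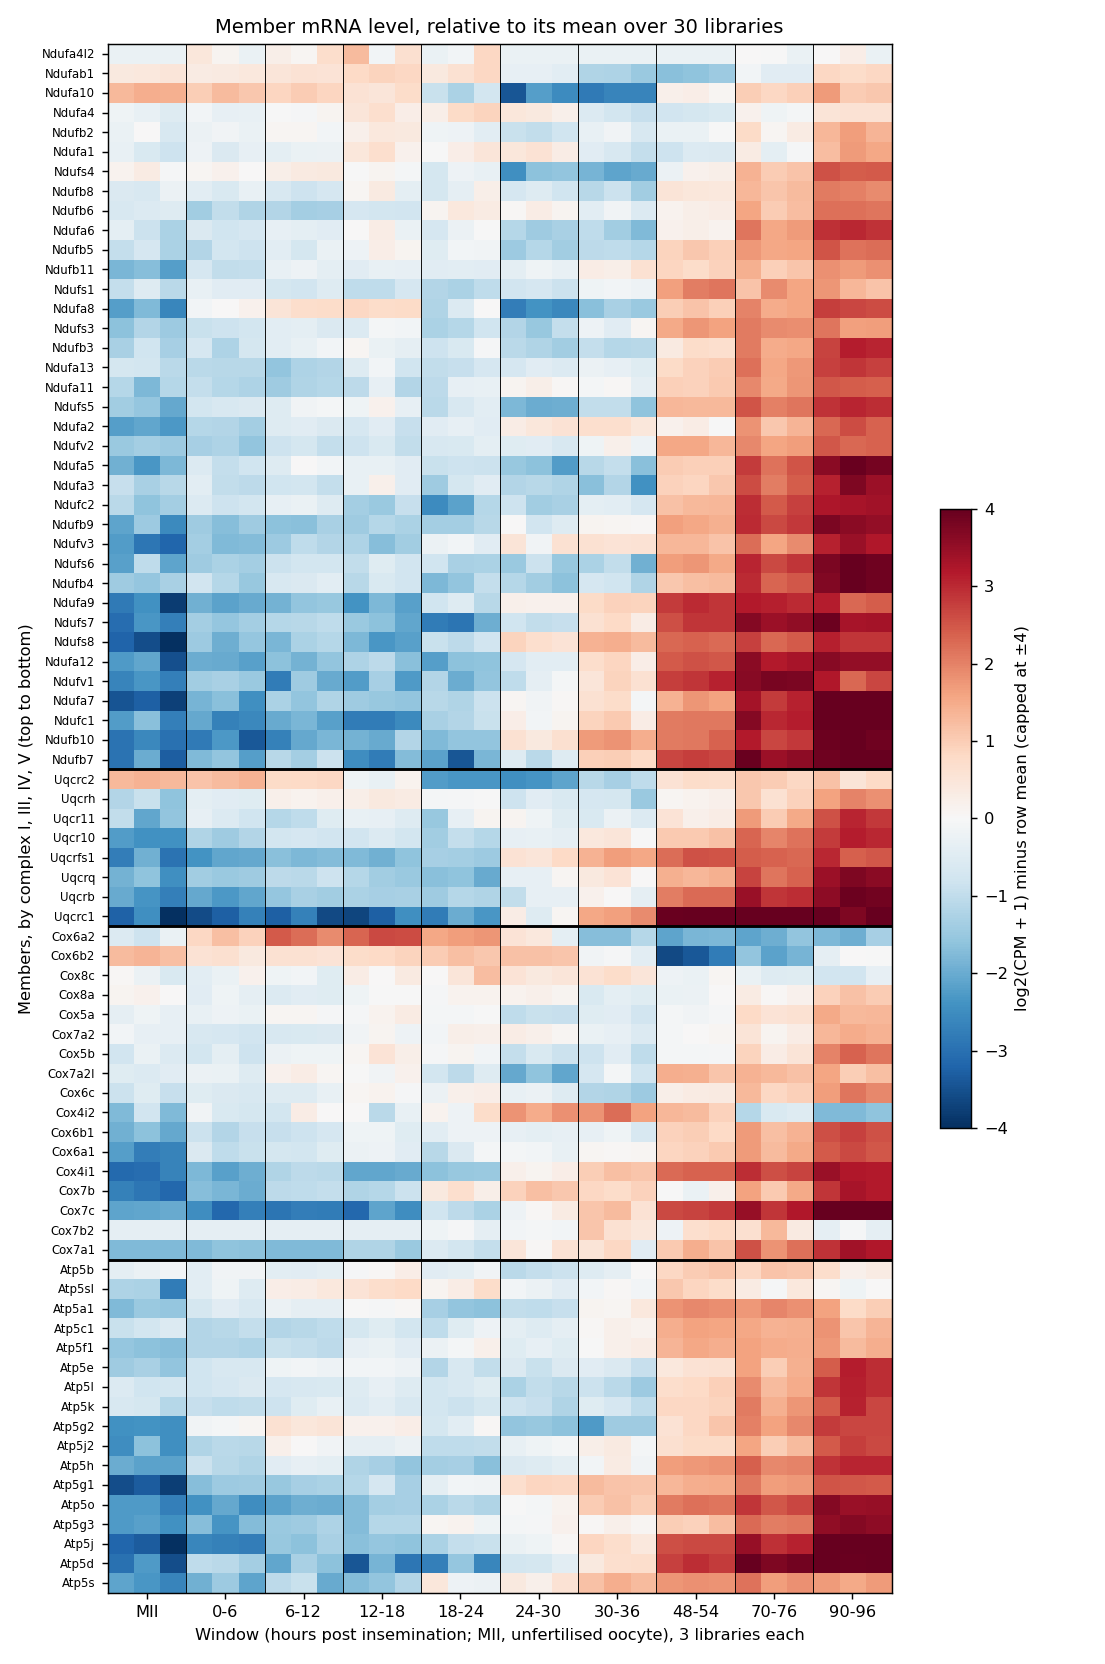
Level of 79 of the 80 members in 30 libraries, as log2(CPM + 1) minus the member's own mean over the libraries (colour, capped at 4 in either direction), with members in rows by complex and windows in columns. Most rows turn from blue to red between 30-36hpi and 48-54hpi, and the rows that are red at the left, such as Uqcrc2, Ndufa10 and Cox6b2, are the members with their highest mean in MII oocytes.

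Consecutive windows were compared with edgeR's quasi-likelihood test, with Benjamini-Hochberg adjustment over all 16234 genes tested. At 0-6hpi, when the zygote forms, 34 of 79 members were higher than in MII oocytes and 5 were lower, against a background of 12.9% of all genes higher and 8.28% lower. At 6-12hpi 13 were higher and 1 was lower than at 0-6hpi (4.73% and 2.93% of all genes), and at 12-18hpi 16 were higher and 9 lower than at 6-12hpi (7.11% and 6.09% of all genes). Over the whole span from oocyte to 12-18hpi, 58 members were higher and 3 were lower (27.9% and 15.9% of all genes), with a median log2 fold change of 0.99 over the members and 0.33 over all genes.

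The middle windows moved members in both directions. At 18-24hpi 13 members were higher and 16 were lower than at 12-18hpi (18.1% and 14.9% of all genes), a split of 44.8% higher calls that was 63.3% with total count scaling and 55.2% with DESeq2 size factors. At 24-30hpi 31 were higher and 22 lower than at 18-24hpi (21% and 24.4% of all genes), or 58.5% higher calls, and 77.6% with total count scaling. At 30-36hpi 40 were higher and 10 lower than at 24-30hpi (21% and 29% of all genes), with a median log2 fold change of 0.39 over the members and -0.22 over all genes. Taken as a whole, 30-36hpi had 39 members higher and 30 lower than 12-18hpi (33.3% and 41% of all genes), or 56.5% higher calls, and 71.9% with total count scaling.

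From 48-54hpi on the members were mostly higher at each step. At 48-54hpi 66 members were higher and 4 were lower than at 30-36hpi, where 28.7% of all genes were higher and 33.3% lower, and the median log2 fold change was 1.27 over the members and -0.19 over all genes. At 70-76hpi 60 were higher and 2 lower than at 48-54hpi (21.6% and 21.8% of all genes; medians 0.74 and 0). At 90-96hpi 54 were higher and 6 lower than at 70-76hpi (20.1% and 19.5% of all genes; medians 0.86 and 0.07). Against 48-54hpi, 90-96hpi had 61 members higher and 6 lower (29.7% and 27.2% of all genes). Set against MII oocytes, 90-96hpi had 72 members higher and 3 lower (42.6% and 38.4% of all genes), with medians of 4.44 over the members and 0.27 over all genes. The scaling of the libraries moved all genes together in some steps. With total counts the all-gene median at 48-54hpi against 30-36hpi was -0.66 and the members' median was 0.79. Fewer members were then called higher and more were called lower, with counts given below for central and other subunits. The difference between the members' median and the all-gene median there was 1.46 under each of 3 scalings.

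**Figure D3:**
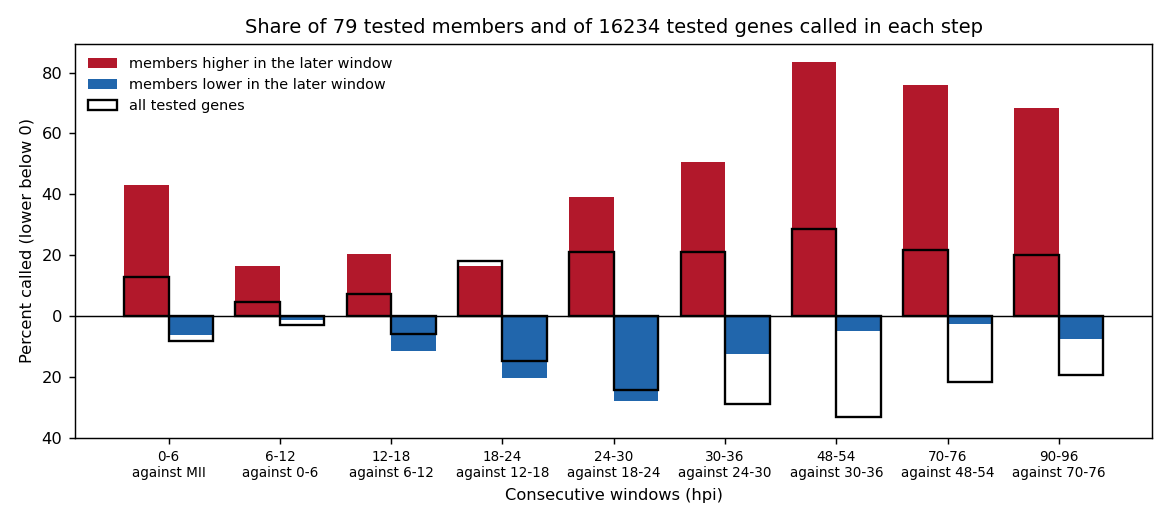
Percent of the 79 tested members (filled bars) and of all 16234 tested genes (outlines) that were called higher (above 0) or lower (below 0) in each window than in the window before it, at an adjusted p below 0.05. Members were called higher more often than genes at large in each step except the one to 18-24hpi. In the steps to 48-54hpi, 70-76hpi and 90-96hpi 66, 60 and 54 members were higher.

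Complex I takes electrons from NADH and was, with 37 members tested, the largest group. Of these, 28 were higher and 1 was lower at 12-18hpi than in MII oocytes (27.9% and 15.9% of all genes). At 30-36hpi 18 were higher and 15 lower than at 12-18hpi (33.3% and 41% of all genes). At 48-54hpi 32 were higher and 2 lower than at 30-36hpi (28.7% and 33.3% of all genes). By 90-96hpi 36 were higher than in MII oocytes and none was lower (42.6% and 38.4% of all genes). Its central subunits, here the conserved nuclear subunits that carry the flavin and the iron-sulfur clusters or bind ubiquinone (among them Ndufv1, Ndufs1, Ndufs7 and Ndufs8), started low or moderate in the oocyte. Ndufs7, an iron-sulfur subunit next to the ubiquinone site, measured 35.9, 40.9 and 28.8 CPM at 30-36hpi, against 12.9, 11.3 and 11.8 CPM at 24-30hpi. All libraries at 30-36hpi were above those at 24-30hpi (log2 fold change 1.55 with SE 0.21 and adjusted p = 1.4e-07), and by 90-96hpi the level was 368, 235 and 241 CPM. Ndufs8, which carries another pair of iron-sulfur clusters, measured 44.8, 38.0 and 35.3 CPM at 24-30hpi, against 12.2, 10.9 and 13.4 CPM at 18-24hpi, with no overlap (log2 fold change 1.69 with SE 0.23 and adjusted p = 1.59e-07).

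Ndufs1, the large subunit that holds several iron-sulfur clusters, and Ndufv1, which binds NADH and flavin, did not have their highest level in the last window. Ndufs1 measured 135, 181 and 193 CPM at 48-54hpi, against 37.8, 39.9 and 37.2 CPM at 30-36hpi, a 4.43-fold rise (log2 fold change 2.15 with SE 0.19 and adjusted p = 5.42e-12). At 90-96hpi it was 147, 110.0 and 95.5 CPM and lower than at 48-54hpi, with libraries that overlapped (log2 fold change -0.53 with SE 0.18 and adjusted p = 0.0125). This call was lost when libraries were scaled by total counts (adjusted p = 0.318), and also when 48-54hpi replicate 3 (adjusted p = 0.101) or 90-96hpi replicate 3 (adjusted p = 0.0902) was left out. Ndufv1 measured 141, 75.2 and 98.1 CPM at 90-96hpi, against 191, 212 and 211 CPM at 70-76hpi, and every library of the later window was below those of the earlier one (log2 fold change -0.96 with SE 0.26 and adjusted p = 0.00312).

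The accessory subunits of complex I, which surround the core and hold the assembly together, differed widely in timing. Ndufa10, a subunit of the membrane arm, measured 391, 433 and 425 CPM in MII oocytes and fell during cleavage, with 21.2, 24.6 and 24.7 CPM at 30-36hpi, against 238, 222 and 263 CPM at 12-18hpi (log2 fold change -3.36 with SE 0.20 and adjusted p = 1.68e-16). It measured 181, 189 and 169 CPM at 48-54hpi, 7.63-fold above 30-36hpi (log2 fold change 2.93 with SE 0.20 and adjusted p = 1.45e-14). At 90-96hpi its 514, 319 and 334 CPM overlapped with the oocyte libraries, and the comparison of these groups did not pass the test.

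Ndufa8, a member of the intermembrane-space side of the complex, was high at 12-18hpi, had its lowest mean at 24-30hpi and its highest at 90-96hpi. It measured 55.4, 51.9 and 53.2 CPM at 12-18hpi, against 5.94, 8.48 and 4.20 CPM in MII oocytes (log2 fold change 3.11 with SE 0.24 and adjusted p = 4.2e-13). At 24-30hpi it was 3.66, 5.15 and 4.32 CPM, against 12.9, 20.9 and 31.0 CPM at 18-24hpi, again with no overlap (log2 fold change -2.30 with SE 0.25 and adjusted p = 1.58e-09). By 90-96hpi it measured 217, 201 and 196 CPM.

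Ndufs6, Ndufa7 and Ndufb10 had their lowest mean in MII oocytes and their highest at 90-96hpi. Ndufs6, a zinc-binding subunit added late in assembly, measured 53.8, 57.5 and 48.4 CPM at 48-54hpi, against 6.24, 7.73 and 3.55 CPM at 30-36hpi, a 8.99-fold rise (log2 fold change 3.17 with SE 0.26 and adjusted p = 1.28e-12). Ndufa7 was close to absent from the oocyte, with 339, 431 and 368 CPM at 90-96hpi, against 0.743, 0.991 and 0.442 CPM in MII oocytes (log2 fold change 9.0 with SE 0.30 and adjusted p = 1.78e-24). Ndufb10, a subunit of the distal membrane arm, measured 27.0, 23.3 and 27.8 CPM at 24-30hpi, against 4.50, 5.19 and 5.13 CPM at 18-24hpi (log2 fold change 2.40 with SE 0.26 and adjusted p = 1.49e-09). Ndufs6, Ndufa7 and Ndufb10 had no overlap between the libraries of the groups compared here.

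Ndufab1, Ndufa4 and Ndufa1 were higher at 12-18hpi than in MII oocytes and lower at 30-36hpi than at 12-18hpi. Ndufab1, the mitochondrial acyl carrier protein that also serves fatty acid and lipoate synthesis, measured 348, 371 and 354 CPM at 12-18hpi and 62.3, 65.1 and 72.6 CPM at 48-54hpi. It was 1 of the 4 members lower at 48-54hpi than at 30-36hpi, with overlapping libraries (log2 fold change -0.28 with SE 0.12 and adjusted p = 0.0368), beside Ndufa2, Cox7b and Cox6b2. The call for Ndufab1 was lost with no low-count filter (adjusted p = 0.215), in a fit of only these groups (adjusted p = 0.0658) and without 30-36hpi replicate 1 (adjusted p = 0.128) or 2 (adjusted p = 0.129). Ndufa4 and Ndufa1, the X-linked subunit needed for assembly of the membrane arm, fell at 30-36hpi. Ndufa4 measured 147, 127 and 113 CPM at 30-36hpi, against 292, 279 and 247 CPM at 24-30hpi (log2 fold change -1.08 with SE 0.14 and adjusted p = 7.09e-08), and Ndufa1 27.1, 24.0 and 18.9 CPM, against 51.9, 56.1 and 46.5 CPM (log2 fold change -1.14 with SE 0.20 and adjusted p = 1.61e-05).

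Complex III passes electrons from ubiquinol to cytochrome c. Of its 8 members 6 were higher and 1 was lower at 12-18hpi than in MII oocytes (27.9% and 15.9% of all genes). At 90-96hpi 7 were higher and 1 lower than in MII oocytes (42.6% and 38.4% of all genes). The lower one was Uqcrc2, at a log2 fold change of -0.48 that turned to 0.0398 with total count scaling (adjusted p = 0.774 in edgeR's test). Its pair of core proteins, encoded by Uqcrc1 and Uqcrc2, started far apart, with Uqcrc1 close to 0 and Uqcrc2 abundant in the oocyte. Uqcrc1 was at 0.849, 2.20 and 0.110 CPM in MII oocytes and 0.361, 0.835 and 2.18 CPM at 12-18hpi. It was 20.7, 11.2 and 17.5 CPM at 24-30hpi, against 1.54, 3.46 and 2.50 CPM at 18-24hpi (log2 fold change 2.71 with SE 0.43 and adjusted p = 1.23e-05), and 50.3, 53.9 and 63.5 CPM at 30-36hpi (log2 fold change 1.76 with SE 0.32 and adjusted p = 6.88e-05, against 24-30hpi). At 24-30hpi and at 30-36hpi every library was above those of the window before. At 48-54hpi the libraries held 271, 325 and 314 CPM, 5.42-fold above 30-36hpi (log2 fold change 2.44 with SE 0.31 and adjusted p = 2.52e-07).

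Uqcrc1 was then lower in the last window, with 486, 231 and 308 CPM at 90-96hpi, against 602, 599.9 and 630.4 CPM at 70-76hpi (log2 fold change -0.84 with SE 0.29 and adjusted p = 0.0245). All 90-96hpi libraries were below all 70-76hpi libraries, but the call was lost without 90-96hpi replicate 2 (adjusted p = 0.131) or 3 (adjusted p = 0.0848), without 70-76hpi replicate 3 (adjusted p = 0.0612) and with DESeq2 (adjusted p = 0.116).

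Uqcrc2 was among the most abundant members in the oocyte. It measured 155, 144 and 196 CPM at 12-18hpi, against 434, 467 and 435 CPM in MII oocytes (log2 fold change -1.43 with SE 0.14 and adjusted p = 8.56e-11). At 18-24hpi it was 37.2, 34.1 and 34.4 CPM, 4.68-fold lower than at 12-18hpi (log2 fold change -2.23 with SE 0.15 and adjusted p = 2.23e-14), and it was 263, 297 and 287 CPM at 48-54hpi, against 81.5, 70.5 and 87.4 CPM at 30-36hpi (log2 fold change 1.82 with SE 0.14 and adjusted p = 1.37e-13). Libraries did not overlap in these comparisons. Per kilobase, Uqcrc2 made up 99.8% ± 0.172 of the summed level of the pair in MII oocytes, 94.8% ± 2.07 at 18-24hpi, 65.0% ± 2.52 at 30-36hpi and 55.7% ± 3.52 at 90-96hpi (SD, n = 3). The share was 54.9% ± 0.878 at 48-54hpi and 42.7% ± 2.84 at 70-76hpi, and the complex itself holds both core proteins in equal number.

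Uqcrfs1, the Rieske iron-sulfur protein that takes the electron from ubiquinol, had its lowest mean in MII oocytes and its highest at 90-96hpi. It measured 129, 123 and 149 CPM at 24-30hpi, against 33.6, 33.3 and 30.9 CPM at 18-24hpi, with no overlap (log2 fold change 2.04 with SE 0.18 and adjusted p = 2.27e-11), and 704, 459 and 488 CPM at 90-96hpi. At 48-54hpi all 8 complex III members were higher than at 30-36hpi (28.7% of all genes).

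Complex IV reduces oxygen, and its nuclear subunits come in part as isoforms known from particular adult tissues. Its catalytic core is encoded in mitochondrial DNA, and of the nuclear subunits Cox4i1, Cox5a and Cox5b are counted here as central. Of 17 members tested 6 were higher and 8 lower at 30-36hpi than at 12-18hpi. These 35.3% and 47.1% were near the 33.3% and 41% of all genes. At 48-54hpi 11 were higher and 2 lower than at 30-36hpi (28.7% and 33.3% of all genes). At 90-96hpi 12 were higher and 2 lower than in MII oocytes (42.6% and 38.4% of all genes). Cox4i1, the broadly expressed form of subunit 4, measured 142, 131 and 149 CPM at 24-30hpi, against 38.5, 42.1 and 43.2 CPM at 18-24hpi (log2 fold change 1.77 with SE 0.13 and adjusted p = 2.78e-13), and 588, 630.1 and 629 CPM at 48-54hpi, against 243, 283 and 266 CPM at 30-36hpi (log2 fold change 1.22 with SE 0.12 and adjusted p = 7.65e-11). With 1359.6, 1139 and 1117 CPM at 90-96hpi it was the highest member per kilobase in that window. Cox4i2, the form known from lung and from low oxygen, measured 10.8, 14.8 and 9.41 CPM at 30-36hpi and 7.59, 7.18 and 5.47 CPM at 48-54hpi, and was down to 0, 0 and 0.114 CPM at 90-96hpi, where 1 read in all was counted. Its share of the pair per kilobase was at most 7.19% ± 2.73, at 18-24hpi.

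Subunit 6B changed its main isoform between 30-36hpi and 48-54hpi. Cox6b2, known as the testis form, measured 183, 192 and 159.9 CPM at 0-6hpi, against 296, 312 and 281 CPM in MII oocytes, a drop with no overlap (log2 fold change -0.74 with SE 0.15 and adjusted p = 0.000261). At 30-36hpi it was 110.1, 118 and 90.2 CPM, against 275, 279 and 266 CPM at 24-30hpi (log2 fold change -1.36 with SE 0.15 and adjusted p = 2.1e-09), and at 48-54hpi 9.18, 10.7 and 16.7 CPM, 8.73-fold below 30-36hpi (log2 fold change -3.13 with SE 0.17 and adjusted p = 1.62e-17). It came back to 94.7, 124 and 121 CPM at 90-96hpi, against 39.9, 27.2 and 33.2 CPM at 70-76hpi (log2 fold change 1.77 with SE 0.16 and adjusted p = 2.83e-11). No libraries overlapped in these steps. The sperm markers together stayed at or below 6.86 CPM in every group.

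Cox6b1, the broadly expressed form, was 186, 196 and 174 CPM at 48-54hpi, against 78.4, 88.1 and 63.5 CPM at 30-36hpi (log2 fold change 1.27 with SE 0.14 and adjusted p = 8.82e-10), and 591, 659 and 576 CPM at 90-96hpi. Cox6b2 made up 92.3% ± 0.685 of the pair per kilobase in MII oocytes, 78.9% ± 0.798 at 24-30hpi, 59.4% ± 0.742 at 30-36hpi, 6.55% ± 2.35 at 48-54hpi and 16.4% ± 1.84 at 90-96hpi. The share at 48-54hpi was 4.95% to 9.25% over the 3 libraries, far from the 58.6% to 60.0% at 30-36hpi.

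**Figure D4:**
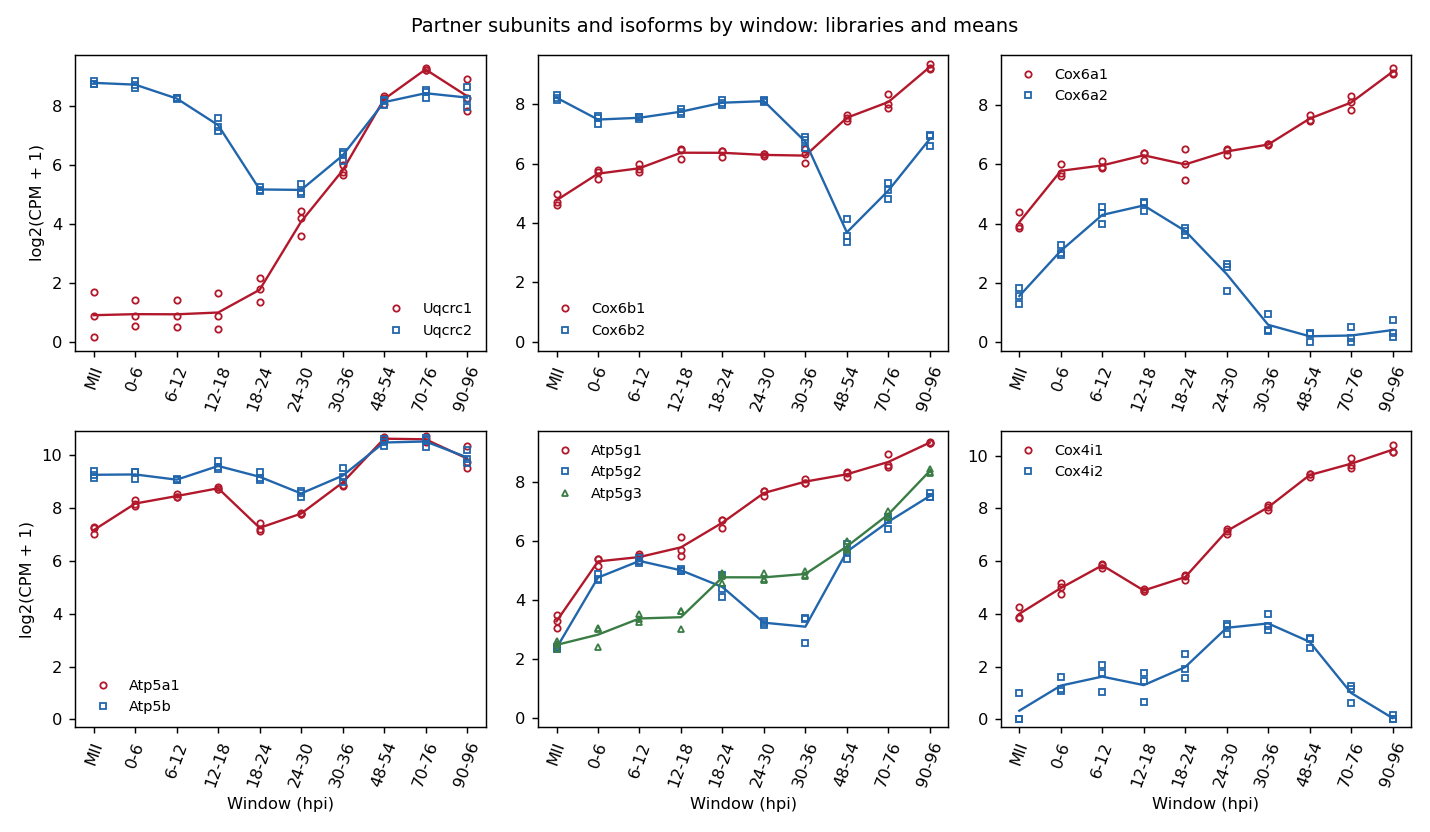
Levels of partner subunits and isoforms (log2(CPM + 1)) in the MII oocyte and the 9 windows, with libraries as open symbols and means as lines (n = 3). Uqcrc1 and Uqcrc2 approach each other from opposite ends, Cox6b2 drops below Cox6b1 at 48-54hpi, and Atp5a1 and Atp5b are lower at 90-96hpi than at 70-76hpi.

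The muscle-type isoforms followed separate courses. Cox6a2, the heart and skeletal muscle form of subunit 6A, measured 20.2, 25.6 and 24.9 CPM at 12-18hpi, against 1.91, 1.43 and 2.54 CPM in MII oocytes (log2 fold change 3.58 with SE 0.46 and adjusted p = 5.11e-08). At 30-36hpi it was 0.302, 0.309 and 0.941 CPM and 45.8-fold lower than at 12-18hpi (log2 fold change -5.52 with SE 0.53 and adjusted p = 1.56e-11). Its share of the Cox6a pair per kilobase was 21.6% ± 3.04 at 12-18hpi and 0.0564% ± 0.0515 at 90-96hpi. Cox7a1, the muscle form of subunit 7A, had no read in the 3 MII libraries and 24.3, 33.4 and 30.1 CPM at 90-96hpi. Against the floor of 3 reads over the MII group, 0.109 CPM, this was at least 268-fold higher. The share of Cox7a1 in the Cox7a1 and Cox7a2 pair per kilobase was 7.31% ± 0.735 at 90-96hpi.

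Among the remaining complex IV members, Cox7b fell once and then rose. It measured 31.0, 25.8 and 36.3 CPM at 48-54hpi, against 55.6, 52.4 and 60.3 CPM at 30-36hpi (log2 fold change -0.85 with SE 0.17 and adjusted p = 7.01e-05), and 234, 317 and 292 CPM at 90-96hpi, against 96.9, 65.4 and 92.0 CPM at 70-76hpi (log2 fold change 1.73 with SE 0.17 and adjusted p = 4.83e-10). Cox5b measured 509.6, 660.1 and 573 CPM at 90-96hpi, against 242, 159 and 186 CPM at 70-76hpi (log2 fold change 1.57 with SE 0.16 and adjusted p = 6.92e-10). The libraries did not overlap in these comparisons. Cox8a was high throughout, with 725, 877 and 786 CPM at 90-96hpi and 411, 434 and 387 CPM in MII oocytes. Cox7b2 and Cox8c, known as testis forms, stayed at or below 3.00 CPM in every library, and Ndufa4l2 at or below 1.93 CPM.

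Complex V, the ATP synthase, turns the proton gradient into ATP. All 17 of its members were higher at 90-96hpi than in MII oocytes (42.6% of all genes), with log2 fold changes of 0.67 to 8.27. At 48-54hpi 15 were higher and none lower than at 30-36hpi (28.7% and 33.3% of all genes). Its F1 head carries the catalytic sites on the beta subunit (Atp5b), held together with alpha (Atp5a1) around gamma (Atp5c1). Atp5a1 measured 427, 419 and 447 CPM at 12-18hpi, against 128, 154 and 149.6 CPM in MII oocytes (log2 fold change 1.59 with SE 0.14 and adjusted p = 1.76e-11). It was 172, 146 and 139 CPM at 18-24hpi, lower than at 12-18hpi (log2 fold change -1.50 with SE 0.14 and adjusted p = 1.27e-10), and 1518, 1664 and 1584 CPM at 48-54hpi, against 466, 462 and 582 CPM at 30-36hpi (log2 fold change 1.66 with SE 0.14 and adjusted p = 1.94e-12). None of these groups overlapped.

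Both catalytic-head genes were lower in the last window. Atp5a1 measured 1321, 737 and 862 CPM at 90-96hpi, against 1439, 1697 and 1560.1 CPM at 70-76hpi (log2 fold change -0.69 with SE 0.14 and adjusted p = 0.000123). Atp5b measured 1179, 848 and 922 CPM at 90-96hpi, against 1289, 1604 and 1551 CPM at 70-76hpi (log2 fold change -0.59 with SE 0.13 and adjusted p = 0.000462). In both genes replicate 1 of 90-96hpi was above the other two, and all 3 were below the 70-76hpi libraries. Atp5b had also been among the highest members in MII oocytes (561, 613 and 676 CPM), and its level at 48-54hpi was 1293, 1465 and 1563 CPM, against 514, 573 and 733 CPM at 30-36hpi (log2 fold change 1.25 with SE 0.13 and adjusted p = 5.2e-10).

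The membrane ring of complex V is built from copies of subunit c, for which Atp5g1, Atp5g2 and Atp5g3 encode the same mature peptide behind different import sequences. Atp5g2 measured 24.4, 25.2 and 28.7 CPM at 0-6hpi, against 4.25, 4.29 and 4.09 CPM in MII oocytes, a 6.19-fold rise with no overlap (log2 fold change 2.63 with SE 0.23 and adjusted p = 7.15e-11). It had declined to 4.83, 9.36 and 9.41 CPM by 30-36hpi and was 40.5, 48.0 and 59.0 CPM at 48-54hpi (log2 fold change 2.64 with SE 0.21 and adjusted p = 6.07e-13, against 30-36hpi). Atp5g1 measured 179.8, 203 and 202 CPM at 24-30hpi, against 86.1, 103 and 102 CPM at 18-24hpi (log2 fold change 1.01 with SE 0.14 and adjusted p = 2.67e-07). Atp5g3 was 315, 345 and 322 CPM at 90-96hpi, against 128, 111 and 114 CPM at 70-76hpi (log2 fold change 1.47 with SE 0.17 and adjusted p = 6.35e-09). In a sum with Atp5g1 per kilobase, Atp5g2 took 75.0% ± 2.69 in MII oocytes, 16.1% ± 5.26 at 30-36hpi and 64.1% ± 0.910 at 90-96hpi. These shares rest on deposited gene lengths of 4715 bases for Atp5g1 and 753 bases for Atp5g2. In CPM, without division by length, Atp5g1 was the higher gene in both end groups. Its means were 636.5 CPM at 90-96hpi and 8.82 CPM in MII oocytes, against 181.9 and 4.21 CPM for Atp5g2. The 3 genes share coding sequence, and the way reads common to them were counted is not given in the sources used here, so their separate levels are uncertain.

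The 16 central subunits of all 4 complexes (the 7 of complex I, Uqcrc1, Uqcrc2, Uqcrfs1, Cox4i1, Cox5a, Cox5b and the F1 genes Atp5a1, Atp5b and Atp5c1) were set beside the other 63 tested members, as a description. At 30-36hpi against 24-30hpi 14 central genes were higher and none was lower in edgeR's test, with a median log2 fold change of 0.80, and of the others 26 were higher and 10 lower (median 0.23). At 48-54hpi against 30-36hpi all 16 were higher (median 1.61), and 50 of the others were higher and 4 lower (median 1.20). With total count scaling 14 central genes were higher and none lower in this step, and 39 of the others were higher and 8 lower. At 70-76hpi against 48-54hpi 7 central genes were higher (median 0.31) and 53 of the others were higher and 2 lower (median 0.76). Of all genes 21% were higher and 29% lower in the step to 30-36hpi. With TMM scaling these shares were 28.7% and 33.3% in the step to 48-54hpi, and 21.6% and 21.8% in the step to 70-76hpi.

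In the last step the central genes were near genes at large and the other members were not. At 90-96hpi against 70-76hpi 4 of the 16 central genes were higher and 4 were lower, with a median of -0.06. Of all genes 20.1% were higher and 19.5% lower, with a median of 0.07. Among the other 63 members 50 were higher and 2 lower, with a median of 0.94. Over the alternative settings the central genes gave 4 to 6 higher and 3 to 4 lower calls and medians of -0.23 to 0.06. Without 90-96hpi replicate 1, which was above the other two for many central genes, the median was -0.23 for the central genes and 1.07 for the others. Central genes had a median deposited gene length of 1698 bases and the others of 862 bases. Across the 79 members this log2 fold change correlated with log2 length at r = -0.07, and at r = 0.06 over all 16234 genes, where genes are not independent replicates.

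Genes that work with the set were counted from lists of the same pathway. The 4 subunits of complex II, the only respiratory complex encoded wholly in the nucleus, were all higher at 48-54hpi than at 30-36hpi, and 2 of them with total count scaling. Sdha, its flavin subunit, measured 104 ± 14.6 CPM at 48-54hpi and 17.1 ± 2.50 CPM at 30-36hpi (log2 fold change 2.59 with SE 0.17 and adjusted p = 2.02e-15). Of the subunits encoded in mitochondrial DNA 10 of 13 were tested, and none was higher and 6 were lower at 48-54hpi than at 30-36hpi (10 lower with total count scaling), while 8 were higher and none lower at 90-96hpi than at 70-76hpi. Their sum was 14399 ± 1516 CPM at 90-96hpi and 13981 ± 1296 CPM in MII oocytes with TMM scaling. As a share of counted reads, however, mitochondrially encoded genes took 1.38% to 1.86% at 90-96hpi and 1.06% to 1.22% in MII oocytes. At 0-6hpi against MII oocytes all 10 tested subunits were lower, with mt-Nd1 at 1484 ± 311 CPM at 0-6hpi and 2697 ± 336 CPM in MII oocytes (log2 fold change -0.86 with SE 0.14 and adjusted p = 1.27e-05). Of all genes 28.7% were higher and 33.3% lower at 48-54hpi than at 30-36hpi. The shares were 20.1% and 19.5% at 90-96hpi against 70-76hpi, and 12.9% and 8.28% at 0-6hpi against MII oocytes.

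The assembly factors of the complexes were counted in the same way, and 28.7% of all genes were higher and 33.3% lower at 48-54hpi than at 30-36hpi. At 48-54hpi against 30-36hpi 7 of 15 complex I factors were higher and 2 lower, 4 of 6 complex III factors were higher and none lower, 12 of 21 complex IV factors were higher and 1 lower, and all 3 complex V factors were higher. With total count scaling the calls were 4 higher and 3 lower, 2 and 1, 11 and 5, and 3 and 0 in the same order of lists, and the median log2 fold change of the complex I factors was -0.06 there, against 0.42 with TMM scaling. At 90-96hpi against 70-76hpi all 3 complex V factors were lower, among them Tmem70, which helps build the subunit c ring, with 144 ± 23.7 CPM at 90-96hpi and 293 ± 12.4 CPM at 70-76hpi (log2 fold change -1.03 with SE 0.14 and adjusted p = 3.39e-07). Of 18 genes for mitochondrial DNA expression and biogenesis 9 were higher and none lower at 30-36hpi than at 24-30hpi, and 4 were higher and 6 lower at 90-96hpi than at 70-76hpi. Of all genes 21% were higher and 29% lower in the step to 30-36hpi, and 20.1% and 19.5% in the step to 90-96hpi. The 4 higher of 18 were near that last share of higher genes.

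In the genotype experiment Klf17 itself, the Kruppel-like factor named in the labels, measured 673, 603 and 728 CPM in the libraries labelled KO, 359, 845 and 794 in mKO, 812 and 1015 in pKO and 596, 805 and 746 in ctrl. A count over the gene does not check a deletion whose extent is not stated, so groups are called by their labels. Mitochondrially encoded genes took 5.92% to 11.4% of reads in the libraries labelled KO, against 3.23% to 4.18% in ctrl. Oocyte markers summed to 3977 ± 297 CPM in KO, 3468 ± 823 in mKO, 2354 ± 279 in pKO and 2417 ± 443 CPM in ctrl. Whether these differences have a part in the values below was not tested, except that leaving out the mitochondrial genes gave 7 calls for KO against ctrl and 16 for KO against pKO.

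In the libraries labelled KO, 1 of 79 members was higher than in ctrl and 6 were lower, against a background of 1.82% of 16694 genes higher and 6.31% lower, so that the share of members called was near that of genes at large. The median log2 fold change was -0.53 over the members and 0.05 over all genes. Lower were Uqcrc1, Ndufs7, Ndufs8, Ndufb10, Cox4i1 and Cox7a2l, and Ndufa1 was higher. The summed level of complex V was 1732 ± 226 CPM in KO and 2663 ± 192 CPM in ctrl, and that of complex III 313 ± 68.7 and 541 ± 73.3 CPM, while complex I was at 1215 ± 302 and 1246 ± 189 CPM and complex IV at 1602 ± 573 and 1491 ± 185 CPM.

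Uqcrc1 measured 14.7, 7.61 and 20.3 CPM in KO, 8.02, 93.8 and 46.1 CPM in mKO, 60.7 and 103 CPM in pKO and 57.0, 79.8 and 83.6 CPM in ctrl. The KO libraries were all below ctrl (log2 fold change -2.37 with SE 0.59 and adjusted p = 0.0251) and pKO (log2 fold change -2.52 with SE 0.63 and adjusted p = 0.0175), and 1 of the 3 mKO libraries lay among them, and KO against mKO was not called (log2 fold change -1.80 with SE 0.58 and adjusted p = 0.235), unless mKO replicate 1 was left out (adjusted p = 0.00582). Ndufs7 measured 10.0, 8.63 and 3.51 CPM in KO, 9.70, 27.6 and 18.4 CPM in mKO, 37.8 and 31.3 CPM in pKO and 24.1, 22.4 and 22.0 CPM in ctrl. It was lower in KO than in ctrl (log2 fold change -1.63 with SE 0.45 and adjusted p = 0.036) and than in pKO (log2 fold change -2.23 with SE 0.49 and adjusted p = 0.0101).

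Ndufs8 measured 39.1, 44.6 and 31.2 CPM in KO, 36.7, 78.4 and 58.9 CPM in mKO, 90.5 and 81.4 CPM in pKO and 96.0, 76.7 and 68.1 CPM in ctrl, lower in KO than in ctrl (log2 fold change -1.07 with SE 0.32 and adjusted p = 0.0469). This call was lost with DESeq2 size factors (adjusted p = 0.0664) and with total count scaling (adjusted p = 0.0507). Ndufb10 measured 19.0, 10.2 and 19.2 CPM in KO, 21.4, 43.1 and 42.4 CPM in mKO, 73.7 and 45.2 CPM in pKO and 52.7, 40.6 and 41.6 CPM in ctrl (log2 fold change -1.48 with SE 0.37 and adjusted p = 0.026, KO against ctrl). In both genes mKO replicate 1 was near the KO libraries and the other two mKO libraries were above them. Cox4i1 measured 98.2, 110.1 and 88.2 CPM in KO, 107, 222 and 196 CPM in mKO, 270.4 and 198 CPM in pKO and 181, 212 and 221 CPM in ctrl (log2 fold change -1.05 with SE 0.29 and adjusted p = 0.0367, KO against ctrl), and this call was lost with DESeq2 size factors (adjusted p = 0.0522). Cox7a2l measured 38.4, 43.1 and 25.3 CPM in KO, 39.1, 65.5 and 55.4 CPM in mKO, 112 and 70.1 CPM in pKO and 94.3, 63.3 and 88.1 CPM in ctrl (log2 fold change -1.20 with SE 0.33 and adjusted p = 0.0342, KO against ctrl). KO and ctrl libraries did not overlap for any of the 6 lower members. These members were picked by the test on the same libraries, so their separation is no added support. The share of all genes without overlap is not given here.

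Ndufa1 went the other way, with 76.6, 75.6 and 53.0 CPM in KO, 46.8, 36.4 and 30.3 CPM in mKO, 41.5 and 26.5 CPM in pKO and 40.3, 21.3 and 25.9 CPM in ctrl (log2 fold change 1.23 with SE 0.34 and adjusted p = 0.0368, KO against ctrl). All KO libraries were above all others. Cox6b2, with 334, 299.6 and 130.2 CPM in KO and 173, 121 and 121 CPM in ctrl, and Atp5a1, with 233, 239 and 235 CPM in KO and 385, 658 and 611 CPM in ctrl, did not pass the test (log2 fold change 0.88 with SE 0.36 and adjusted p = 0.135 for Cox6b2; log2 fold change -1.23 with SE 0.37 and adjusted p = 0.051 for Atp5a1). In edgeR's test Atp5a1 was called lower in a fit of only these groups (adjusted p = 0.00256) and with no low-count filter (0.00352). The same held with a replicate block (0.0161), without ctrl replicate 1 (0.0482) and with DESeq2's Wald test (0.0269). Cox6b2 was called higher with no low-count filter (adjusted p = 0.042). Ndufa4 was not called, but with DESeq2's Wald test it was higher in KO (adjusted p = 0.0266). In edgeR's test it was also called higher in a fit of only these groups (adjusted p = 0.0239) and with no low-count filter (0.0154). The same held for Ndufa4 with a replicate block (0.0274) and without KO replicate 3 (0.0478). Cox6b2 made up 87.3% ± 3.62 of the Cox6b pair per kilobase in KO, 78.7% ± 6.87 in mKO, 69.7% ± 1.50 in pKO (n = 2) and 69.3% ± 1.41 in ctrl.

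**Figure D5:**
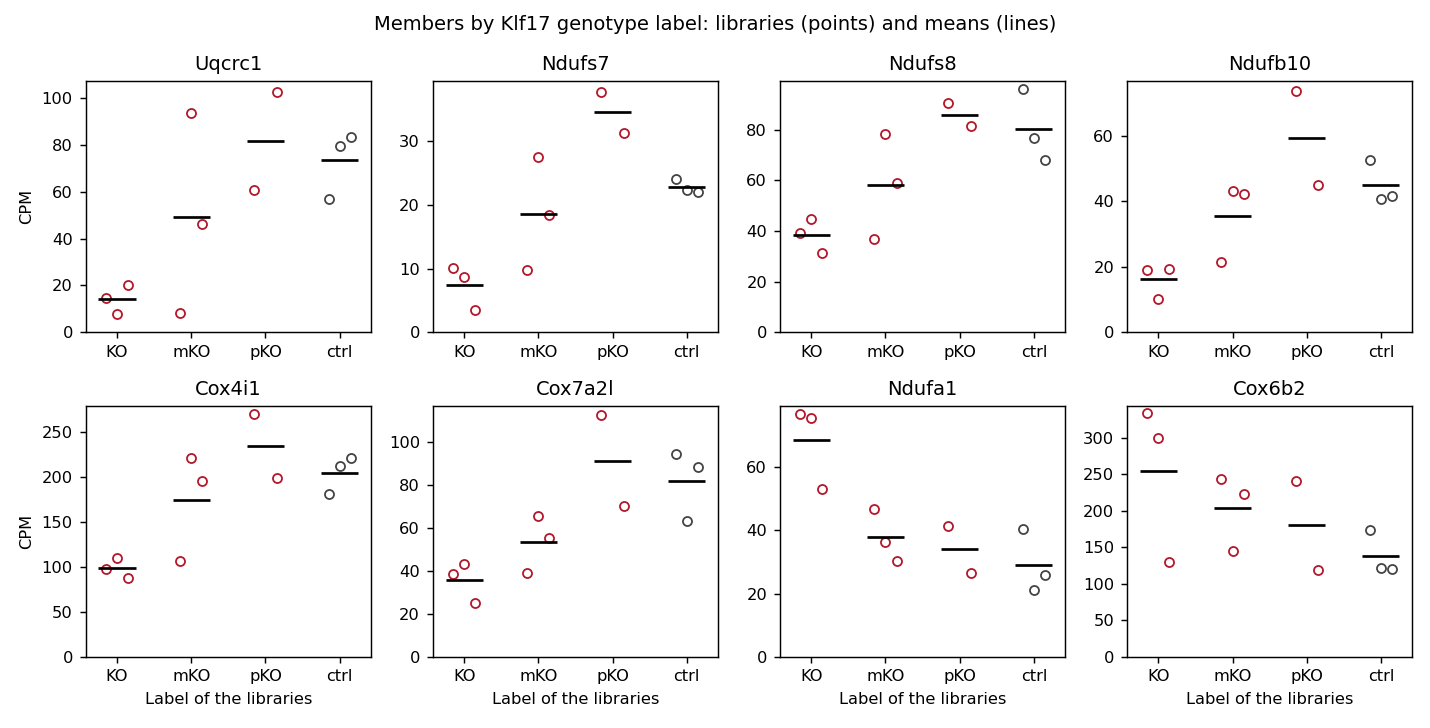
Level (CPM) of 8 members in the libraries labelled KO, mKO, pKO and ctrl, with libraries as points and group means as lines (n = 3, 3, 2 and 3). The KO libraries lie below ctrl for Uqcrc1, Ndufs7, Ndufs8, Ndufb10, Cox4i1 and Cox7a2l and above it for Ndufa1, and KO and ctrl libraries overlap for Cox6b2.

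Leaving out a library gave fewer than the 7 calls for KO against ctrl in each case. No member was called without KO replicate 1, KO replicate 2, ctrl replicate 2 or ctrl replicate 3. Without KO replicate 3 there were 2 calls, both higher in KO, and without ctrl replicate 1 there were 3, of which 2 were lower in KO and 1 was higher. In the other direction DESeq2 made 12 calls and a fit of only these groups 17. On simulated data edgeR recovered 5% of 100 genes changed 2-fold and 78% of 100 genes changed 4-fold in this comparison, among 16189 genes. The real comparison called 304 genes higher and 1054 lower. The adjustment is stricter when fewer genes change, so the simulated shares do not give the power in the real data.

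Against pKO 16 members were lower in KO and none higher, with 9.67% of all genes lower and 2.83% higher, and medians of -0.75 over the members and 0.09 over all genes. These 16 were Uqcrc1, Uqcrfs1, Uqcr10 and Uqcrq of complex III, Cox4i1, Cox5a, Cox6b1 and Cox7a2l of complex IV, Atp5a1 of complex V, and Ndufa7, Ndufa12, Ndufb2, Ndufb7, Ndufb10, Ndufs7 and Ndufs8 of complex I. The KO libraries are the same in both comparisons, so these are not independent. Leaving out 1 library gave 1 to 10 calls, with 1 without KO replicate 2 and 10 without pKO replicate 2. With 1 pKO library left, the spread comes from the other groups and that library is assumed to vary like them.

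No member was called for mKO or pKO against ctrl, KO against mKO or mKO against pKO, where edgeR called 0% of all genes. At an unadjusted p below 0.05 the members numbered 0, 0, 11 and 6 in these comparisons, and DESeq2's Wald test called none in any of the 4. Without mKO replicate 1, whose levels lay near KO for the genes above, 7 members were called for KO against mKO. Leaving out the mKO library nearest to KO favours such calls. The share of all genes called in that fit is not given here, so this count is not a result about the members. The members' median log2 fold change was 0.30 for pKO against ctrl, -0.32 for KO against mKO and -0.36 for mKO against pKO.

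The lists of partner genes were counted in the libraries labelled KO as well, where 1.82% of all genes were higher and 6.31% lower than in ctrl. Of 10 tested subunits encoded in mitochondrial DNA 7 were higher than in ctrl and none was lower, with mt-Nd1 at 24906 ± 10134 CPM in KO and 8260.3 ± 983 CPM in ctrl (log2 fold change 1.59 with SE 0.32 and adjusted p = 0.0121). Of 15 complex I assembly factors 3 were lower, of 6 complex III factors 1, of 21 complex IV factors 2 and of 17 genes of mitochondrial DNA expression and biogenesis 4, with none higher in these lists. No gene was called among the 4 complex II subunits, the 3 complex V factors and the 3 genes of cytochrome c and its lyase. Pprc1, a coactivator of nuclear genes for mitochondrial proteins, measured 33.1 ± 6.04 CPM in KO and 134 ± 20.8 CPM in ctrl (log2 fold change -2.01 with SE 0.35 and adjusted p = 0.00663).

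The genotype libraries and the window libraries are independent, so the values of both can be set side by side. Of the 40 members that were higher at 30-36hpi than at 24-30hpi, 37 had a log2 fold change below 0 for KO against ctrl, with a median of -0.75. The same held for 90.9% of the 3373 genes with that step, with a median of -0.92, so the members were near the background. Of the 10 members that were lower at 30-36hpi than at 24-30hpi 0 had a log2 fold change below 0 for KO against ctrl, and 17.5% of the 4549 such genes did. Across the 79 members the fold changes of these comparisons correlated at r = -0.753, and across 15388 genes at r = -0.488, with genes of 1 library sharing its depth and scaling.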

How the data were processed

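Polyadenylated RNA of MII oocytes and of embryos in 9 labelling windows (30 libraries) and of embryos with 4 Klf17 genotype labels (11 libraries) was measured by SLAM-seq with a modified Smart-seq2 protocol, per the labels' protocols. The deposited tables hold read counts per gene, per the file headers. The deposited 90-96hpi replicate 3 column was treated like estimated counts and rounded, because a damaged record (gene Nyx, left out) holds a fraction. The submitters' processing notes name Bowtie2 2.4.2, STAR 2.7.10a, Trim Galore 0.6.10, deepTools 3.5.4, Picard 2.20.4 and SAMtools 1.12, and the builds mm10 and GRCm38. The counting tool, the strand counted and any use of T-to-C changes are not given in the sources used here. The chromatin accessibility samples (14 of 61) and a table on embryo numbers were not used.

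Groups came from sample titles. The windows and the genotypes were fitted separately over all genes in edgeR 4.0.16 and R 4.3.3 (filterByExpr at its settings of 10 for the count and 15 for the total, TMM, robust quasi-likelihood F-test, two-sided), with calls at a Benjamini-Hochberg adjusted p below 0.05. The SE is the log2 fold change divided by the square root of F. CPM used TMM-scaled totals, and levels per kilobase used the gene lengths in the deposited tables, which may differ from the length of the transcript present. No label says that replicates were separate collections of embryos, and a p-value therefore covers the spread between libraries, which may be technical. Members and lists were chosen with earlier results of these data known. Named were the 16 central subunits, the tissue isoforms and, in each comparison, up to 3 members at either end of the fold changes among called members whose higher group averaged 20 CPM or more. Other members were named after their values were seen, and 1 member counted in the totals is not reported here by itself.

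Alternatives were a replicate block, DESeq2 1.42.0 (Wald test), its size factors, scaling by total counts, a fit with no filter on low counts, the mitochondrial genes left out, a fit of only the groups compared, and each library left out in turn. On simulated data edgeR recovered 65% of 100 genes changed 2-fold and 93% of 100 genes changed 4-fold for 0-6hpi against MII, among 15412 genes. Far fewer genes were changed there than the real comparison called. Summaries used matplotlib 3.10.9, pandas 2.3.3 and numpy 2.4.6 in Python 3.11.15.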

Additional observations from a re-analysis of the deposited data

How the results depend on the processing

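Of 244 recomputed counts of called members over 19 comparisons, 216 stayed within 1.5 times the value given, and the others were these. For 6-12hpi against 0-6hpi (14 calls) DESeq2's Wald test made 26 calls, a fit of only these groups 34, and leaving out a library 4 to 11. For 12-18hpi against 6-12hpi (25 calls) leaving out a library gave 10 to 17. For KO against ctrl (7 calls) no low-count filter gave 12, DESeq2's Wald test 12, a fit of only these groups 17 and leaving out a library 0 to 3. For KO against mKO (0 calls) no low-count filter gave 2 and leaving out a library 0 to 7, and for KO against pKO (16 calls) leaving out a library gave 1 to 10. The cause was not tested. Of 1790 recomputed fold changes of single members 1639 kept direction, call and size, 76 lost their call, 14 gained one, 60 moved in size, and 1 turned: Uqcrc2 at 90-96hpi against MII was at -0.48 with TMM and 0.0398 with total count scaling (adjusted p = 0.774). The higher share of calls for 30-36hpi against 12-18hpi was 66.7% in a fit of only these groups. Replicate numbers were not taken to pair the samples, since in no comparison with 3 pairs did every same-numbered pair correlate above 0.1, or each library correlate best with its own number. With 2 pairs the correlations were 0.322 and 0.283 for mKO against pKO, 0.223 and 0.21 for pKO against ctrl, and 0.0864 and -0.0504 for KO against pKO. For mKO against ctrl they were 0.231, 0.207 and -0.00115 for numbers 1, 2 and 3. Genotype libraries with different numbers correlated at 0.149 at most. A link between same-numbered libraries 1 and 2 of mKO, pKO and ctrl is therefore possible, and the main fit does not allow for it. With the replicate number as a block KO against ctrl had 11 calls and KO against pKO 17, and no other count of calls moved by over 1.5 times. At 7395193 to 13301570 reads per window library a level under 1 CPM rests on few reads. In the simulated KO comparison, with fewer changed genes than the real one called, 5% of changes of 2-fold were recovered.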
